A study of Mus musculus with 5 samples.

Results

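The genes described here are the 10 that build, load and control MHC class I, the surface complex that shows peptides from inside a cell to CD8+ T cells. They were chosen by name: H2-K1, H2-D1, B2m, Tap1, Tap2, Tapbp, Psmb8, Psmb9, Psmb10, and Nlrc5. All 10 were found in each of 5 scRNA-Seq reactions, among 32285 genes in the 3 reactions from tumor-draining lymph nodes (TDLNs) and 33696 in the 2 reactions from MC38 tumors. The TDLNs came from mice carrying TRAMP-C2, a mouse prostate cancer line, and the tumors were MC38, a mouse colon carcinoma line. All mice were male WT C57BL/6J aged 8 to 10 weeks at the start, were injected s.c. with the tumor line, and were killed on day 15. On days 3, 6, and 9 they were given isotype antibody or CPI, which is anti–PD-1 plus anti-CTLA4, and on day 12 vehicle (DPBS) or the JAK1 inhibitor ABT-317 at 20 mg/kg, which gives 4 treatments: isotype, isotype + ABT-317, CPI, and CPI + ABT-317. The paper's methods count these days from implantation, whereas its figure legend for MC38 tumors counts them from enrollment at a set tumor size. Sorted CD45+ and CD45- cells of the tumors were mixed in equal parts, so shares of cells follow the sort, whereas TDLN cells were not sorted. Cells of all treatments were pooled in each reaction. In MC38 tumors the deposited key gives 1 antibody hashtag for each treatment in each reaction and ties none to a mouse, although the methods say that hashtags also told samples apart, and in the TDLN matrices the antibody counts are 0, so treatments were compared in MC38 tumors alone. A p value then measures the spread between reactions, which may be technical.

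Class I molecules are made of a heavy chain (H2-K1 and H2-D1 in this strain) and the small subunit beta-2-microglobulin (B2m). Peptides are cut by the proteasome, in which the interferon-inducible subunits encoded by Psmb8, Psmb9, and Psmb10 can take the places of the constitutive ones encoded by Psmb5, Psmb6, and Psmb7. The Tap1/Tap2 transporter carries the peptides into the endoplasmic reticulum, and tapasin (Tapbp) holds empty class I molecules next to it until they are loaded. Nlrc5 is a transactivator of class I genes, and IFN-γ, which signals through JAK1, induces most of the 10.

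On chromosome 17 lie 7 of these genes, written here with coordinates of build GRCm38. H2-K1 is at chr17:33996017-34000347 on the minus strand and H2-D1 at chr17:35262730-35267499 on the plus strand, 1262382 bases apart. Tapbp is at chr17:33915899-33929292 on the plus strand. Psmb9 (chr17:34181987-34187764, minus), Tap1 (chr17:34187553-34197225, plus), Psmb8 (chr17:34197721-34201454, plus), and Tap2 (chr17:34203527-34216321, plus) follow each other within 34335 bases, and the annotated ends of Psmb9 and Tap1 overlap by 212 bases. B2m is at chr2:122147686-122153083 on the plus strand. Psmb10 (chr8:105935735-105938444, minus) and Nlrc5 (chr8:94434356-94527272, plus) are on chromosome 8. Each UMI is assigned to a gene as a whole, with no exon or UTR resolved, and since H2-K1 and H2-D1 are near-identical in part of their sequence to each other and to the H2-Q genes, their counts are uncertain where reads could be assigned to a neighbor.

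Promoters of 8 of the 10 genes were in the RefSeq promoter table (250 bases before to 50 after each start, GRCm38.p6). Parts of 4 are shown, since they hold the short motifs by which members of this group resemble each other. Capitals mark GGGATTCC (an NF-kB type site), GAANNGAAA (an interferon response element, in reverse in H2-K1 and H2-D1), the interferon-stimulated response element of B2m, TGACG (the core of an X box), and CCAAT in reverse (a Y box).
H2-K1 (chr17:34000354-34000465, minus strand): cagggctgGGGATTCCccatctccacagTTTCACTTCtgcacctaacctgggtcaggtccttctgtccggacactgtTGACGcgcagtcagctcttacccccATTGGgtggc
H2-D1 (chr17:35262924-35262952, plus strand): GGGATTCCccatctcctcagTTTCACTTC
B2m (chr2:122147541-122147642, plus strand): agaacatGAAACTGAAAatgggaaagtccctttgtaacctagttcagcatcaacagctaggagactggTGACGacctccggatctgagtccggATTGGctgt
Tap1 (chr17:34187458-34187486, plus strand): cccagagacaggTGACGacagagggtcct
The H2-K1 and H2-D1 promoters matched at 101 of the 112 bases of the H2-K1 stretch (90.2%). The NF-kB type motif stood in 2 of the 8 promoters and in 1.06% of 32851 promoters searched on both strands. GAANNGAAA was in 2 of the 8 and 7.52% of all, the interferon-stimulated response element in 1 and 3.44%, TGACG in 5 and 20.8%, and CCAAT in 6 and 37.4%. The promoter windows of Tap1 and Psmb9, which are read in opposite directions, share 275 of their 300 bases, so that the TGACG of the one promoter is that of the other, as is the CCAAT, and each is counted in both. The motifs were chosen after these windows had been read, and a match is only a match of letters.

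Cells were assigned to classes from the UMIs of marker lists that hold none of the class I genes. In MC38 reactions 1 and 2, 3098 and 4466 barcodes were macrophage-like, 2060 and 1315 fibroblast-like, 78 and 188 T-like, 40 and 47 endothelial-like, and 35 and 19 neutrophil-like. The largest class held 14786 and 10029 barcodes and is called Klra4/H19+ cells here, after genes of the list that defined it. That list is the fibroblast list with Klra4, Cox6a2, and H19 added, so a barcode of the class need not hold a UMI of Klra4 or H19. No class was named tumor cells, since the list of keratins, Epcam, and claudins summed to 0.635 and 0.620 UMIs per 1000000 (CPM) in Klra4/H19+ cells. MC38 tumor cells should be among the sorted CD45- cells, and whether Klra4/H19+ cells are those was not tested. Klra4/H19+ cells were low in leukocyte genes (68.7 and 44.8 CPM over 5 genes, against 3849.8 and 4219 CPM in macrophage-like cells) and in 4 Y-linked genes (2.20 and 1.25 CPM, against 87.5 and 86.9 CPM in macrophage-like cells), although the hosts were male. Their median depth was 18376.5 and 25222 UMIs, against 3508.5 and 4030.0 in macrophage-like cells. A further 13663 and 7262 MC38 barcodes met no class. In TDLNs, 1791, 4452, and 273 barcodes were T-like and 1517, 1185, and 74 B-like. Most TDLN barcodes, 59258, 50864, and 6703 of 62571, 56509, and 7050, met no class and took no part in the class comparison. Among the TDLN barcodes of no class the 6 T-cell marker genes summed to 1655, 1917, and 2026 CPM and the 5 B-cell marker genes to 1631, 1292, and 1441 CPM. Any pair of reactions shared between 271 and 4842 barcode sequences, from 3.84% to 8.70% of the smaller reaction.

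Class I genes were read in all classes, and the order of the classes differed from gene to gene. Values are CPM, the UMIs of a gene per 1000000 UMIs of that class in that reaction. The kit reads the 5′ ends of transcripts, so a gene is compared between classes and not with other genes.

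With treatments pooled, H2-K1 was highest in T-like cells, while H2-D1 overlapped between T-like and endothelial-like cells. H2-K1 stood at 1098 and 1203 CPM in Klra4/H19+ cells of reactions 1 and 2, 1200.0 and 1278 in fibroblast-like, 1416 and 1456 in macrophage-like, 2113 and 2258 in endothelial-like, and 2459.8 and 2616 in T-like cells. Only the neighbors Klra4/H19+ and fibroblast-like overlapped in this order. H2-D1 stood at 825 and 950.1 CPM in Klra4/H19+ cells, 1111 and 1256 in fibroblast-like, 1515 and 1685 in macrophage-like, 1568 and 2085 in endothelial-like, and 1746 and 2077 in T-like cells. Klra4/H19+ cells had the lowest values of H2-D1, with no overlap with the next class, while the 3 highest classes overlapped with their neighbors. B2m was lowest in fibroblast-like cells (2229 and 2195 CPM), followed by Klra4/H19+ cells (2413 and 2449.9 CPM), and both stood apart from macrophage-like (3066 and 2960.1), endothelial-like (3016 and 3057), and T-like cells (3253 and 3108). These values pool the treatments, which the classes hold in unlike shares. Within isotype B2m was at 2674 and 2862 CPM in the 64 and 19 fibroblast-like barcodes and 2434 and 2432 in Klra4/H19+ cells, which turns their order around. Within CPI, the hashtag of most T-like and few macrophage-like barcodes, B2m was at 3188 and 3181 CPM in T-like and 3351 and 3409.9 in macrophage-like cells and H2-D1 at 1513 and 2075 and 2074 and 2598, so that macrophage-like cells were the higher in each reaction, for B2m within counting error, while H2-K1 stayed higher in T-like cells (2613 and 2605 against 1835 and 2318 CPM).

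With treatments pooled, the transporter and the transactivator gave a steeper order. Tap1 was at 38.9 and 41.2 CPM in fibroblast-like and 40.9 and 45.6 in Klra4/H19+ cells, which overlapped in range, 88.3 and 93.5 in macrophage-like, and 135 and 129 in T-like cells. Nlrc5 was at 12.4 and 9.39 CPM in fibroblast-like, 13.6 and 10.2 in Klra4/H19+, 32.4 and 30.9 in macrophage-like, and 103 and 168 in T-like cells. T-like cells thus had the highest Nlrc5 in both reactions. Klra4/H19+ cells lay above fibroblast-like cells in each reaction, with ranges that overlapped over both. Tap2 was flatter, at 54.7 and 53.3 CPM in fibroblast-like, 62.1 and 62.5 in macrophage-like, 61.3 and 74.8 in Klra4/H19+, 70.0 and 53.0 in endothelial-like, and 111 and 148 in T-like cells. T-like cells stood above all other classes, and fibroblast-like cells below Klra4/H19+ and macrophage-like cells but not below endothelial-like cells. Tapbp was at 103 and 113 CPM in T-like, 117 and 125 in Klra4/H19+, 137 and 147 in fibroblast-like, 146 and 141 in macrophage-like, and 147 and 79.5 in endothelial-like cells, whose 2 values lay furthest apart. Within CPI Tap1 was at 37.5 and 143 CPM in T-like cells, from 3 and 28 UMIs. It ranged from 56.0 to 94.3 CPM in macrophage-like and from 57.2 to 64.6 in Klra4/H19+ cells there, so these classes overlapped.

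The inducible proteasome subunits, again with treatments pooled, did not follow the heavy chains. Klra4/H19+ cells had the highest Psmb8 (639 and 771 CPM, against 499.9 and 605 in T-like, 484 and 566 in macrophage-like, 389.7 and 428 in fibroblast-like, and 259 and 323 in endothelial-like cells). They also had the highest Psmb10 (312 and 366 CPM, against 195 and 209 in fibroblast-like, 189.5 and 201 in macrophage-like, and 103 and 137 in T-like cells). For Psmb9 they were near the bottom, at 128 and 146 CPM, above fibroblast-like cells (97.2 and 108) and below macrophage-like (233 and 269) and T-like cells (238 and 273). Within isotype Psmb8 was at 1144 and 1182 CPM in T-like cells, from 4 and 13 UMIs, and from 617 to 742 in Klra4/H19+ cells. Within CPI it was at 450 and 520 CPM in T-like and from 539 to 681 in Klra4/H19+ cells. Psmb9 within CPI ranged from 159 to 196 CPM in macrophage-like and from 169 to 172 in Klra4/H19+ cells, which overlapped. Neutrophil-like cells had too few UMIs for an order, with 246 and 116 UMIs over all 10 genes.

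**Figure D1:**
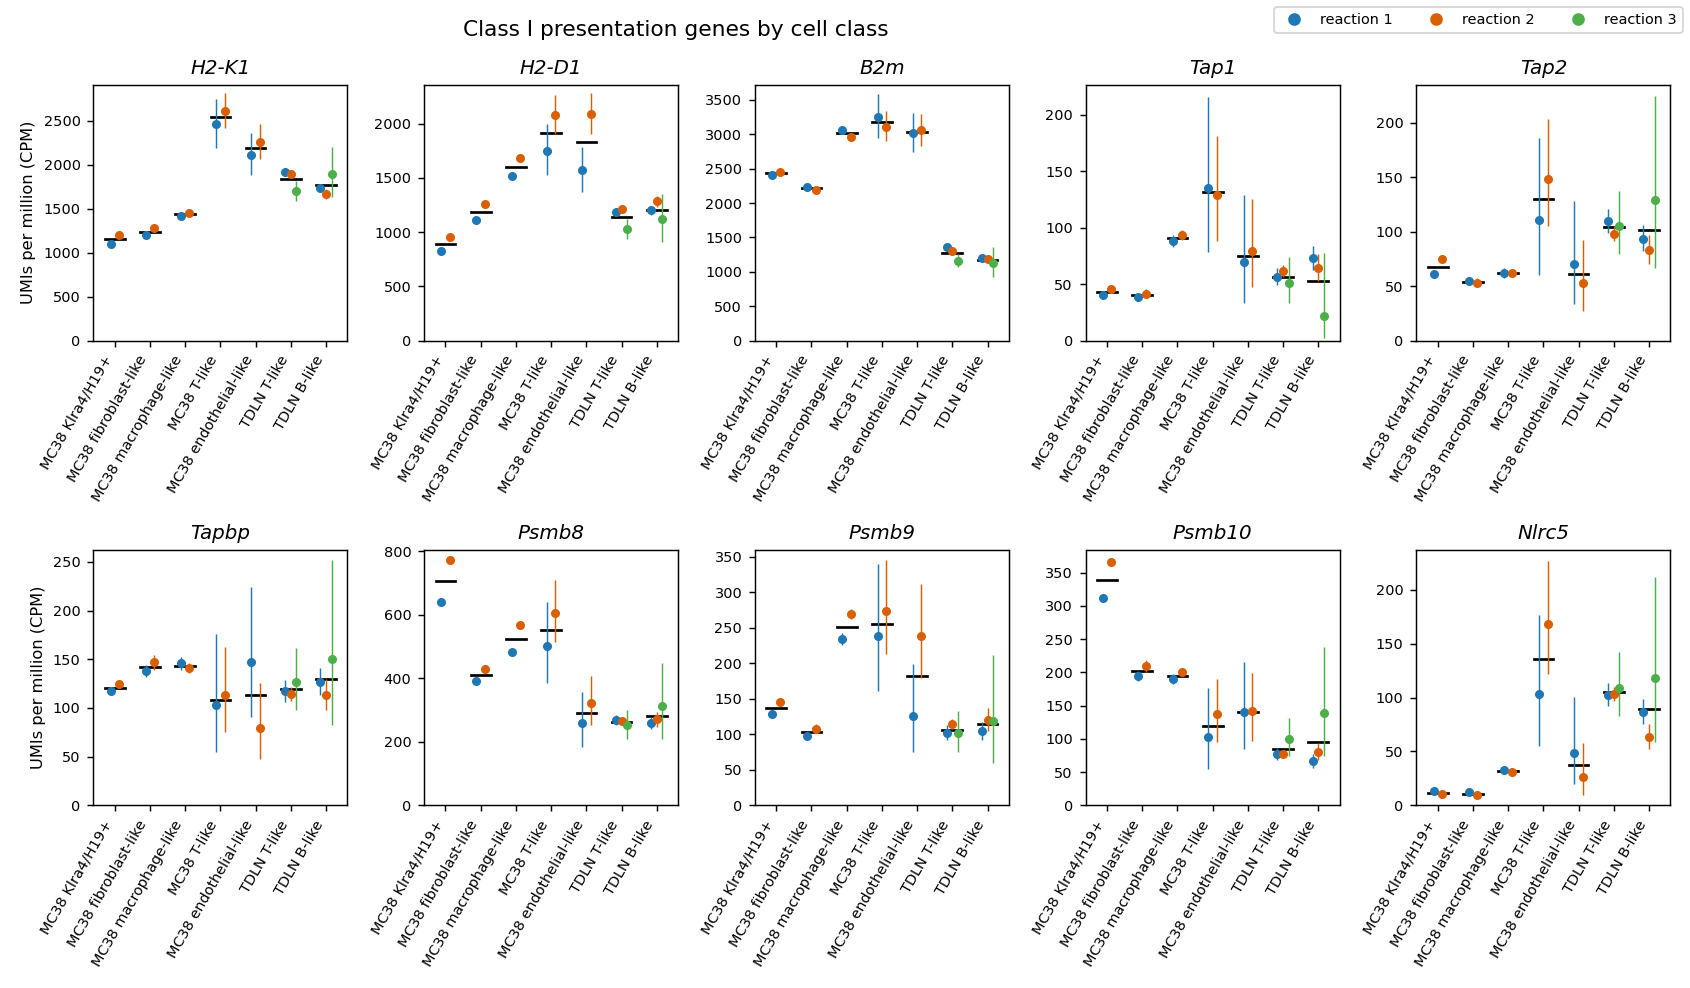
Level of each class I gene (CPM, y axis from 0) in each cell class of MC38 tumors and TDLNs (x axis). Points are reactions with their 95% Poisson interval, which covers counting error only, and black lines are means over reactions. With treatments pooled, Klra4/H19+ cells are highest for Psmb8 and Psmb10 among the MC38 classes, and MC38 T-like cells are highest for H2-K1 and Nlrc5.

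Klra4/H19+ cells were tested against each other class on UMI sums per class and reaction with edgeR's quasi-likelihood test, with p values adjusted over all genes by the Benjamini-Hochberg method and a call at an adjusted p under 0.05. Against macrophage-like cells, 7 of the 10 genes passed, 6 lower and 1 higher in Klra4/H19+ cells, where 10456 of 14905 tested genes (70.2%, with 37.6% higher and 32.6% lower) passed, so a gene with a call is the rule in this comparison. Nlrc5 had the largest log2 difference, -1.50 ± 0.19 (SE), adjusted p = 7.5e-06. Tap1 (-1.16 ± 0.15 (SE), adjusted p = 9.5e-06), Psmb9 (-0.96 ± 0.16 (SE), adjusted p = 0.00013), and H2-D1 (-0.94 ± 0.17 (SE), adjusted p = 0.0002) were lower as well. H2-K1 (-0.40 ± 0.14 (SE), adjusted p = 0.022) and B2m (-0.39 ± 0.13 (SE), adjusted p = 0.014) differed less. Psmb10 was the 1 gene that was higher, by 0.71 ± 0.16 (SE), adjusted p = 0.0012. The differences of Psmb8 (0.34 ± 0.17), Tapbp (-0.33 ± 0.14), and Tap2 (0.045 ± 0.16) did not pass, with adjusted p values of 0.095, 0.052, and 0.82. With the reaction as a block, Psmb8 (0.34 ± 0.10, adjusted p = 0.0095) and Tapbp (-0.33 ± 0.073, adjusted p = 0.002) passed too, where 75.5% of all genes did. The median log2 difference was -0.40 over the 10 genes and 0.14 over all genes.

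Since treatments are mixed in these classes, the same comparison was made within the barcodes of 1 treatment. Psmb9 was lower in Klra4/H19+ cells within isotype (-0.88 ± 0.18, adjusted p = 0.00018) but not within CPI (0.0048 ± 0.26, adjusted p = 1). Nlrc5 was lower within isotype (-1.60 ± 0.22, adjusted p = 8.9e-07) and stood at 0.054 ± 0.50, adjusted p = 0.97, within CPI. H2-K1 was lower within CPI (-0.64 ± 0.17, adjusted p = 0.0065) and stood at 0.0087 ± 0.17, adjusted p = 0.97, within isotype + ABT-317. H2-D1 was lower and Psmb10 higher in Klra4/H19+ cells within every treatment, with H2-D1 from -0.58 ± 0.21, adjusted p = 0.027, to -1.17 ± 0.22, adjusted p = 0.00026, and Psmb10 from 0.44 ± 0.18, adjusted p = 0.038, to 1.38 ± 0.19, adjusted p = 2.1e-06.

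Against fibroblast-like cells, 4 genes passed, all higher in Klra4/H19+ cells, where 8649 of 14905 tested genes (58%, with 27.3% higher and 30.8% lower) passed and 47.0% of those were higher. They were Psmb8 (0.96 ± 0.18 (SE), adjusted p = 0.00041), Psmb10 (0.92 ± 0.16 (SE), adjusted p = 0.00029), Psmb9 (0.58 ± 0.16 (SE), adjusted p = 0.008), and the transporter subunit Tap2 (0.50 ± 0.16 (SE), adjusted p = 0.018). The heavy chains did not pass, with H2-K1 at 0.06 ± 0.14 (SE), adjusted p = 0.74, and H2-D1 at -0.25 ± 0.17 (SE), adjusted p = 0.22, although the CPM values of H2-D1 did not overlap. Nlrc5 (0.28 ± 0.20) and Tapbp (-0.064 ± 0.14) did not pass either. With the reaction as a block B2m (0.30 ± 0.068, adjusted p = 0.0029), Tap1 (0.28 ± 0.085, adjusted p = 0.016), and H2-D1 (-0.25 ± 0.083, adjusted p = 0.022) passed as well, which makes 7, beside 66.1% of all genes. The share of called genes that were higher fell to 36.4% with DESeq2 size factors and 34.9% when totals alone set the scale, and Tap2 then no longer passed (0.33 ± 0.15, adjusted p = 0.086, with totals). Without fibroblast-like cells of reaction 1, 2 of the 10 genes passed. Most fibroblast-like barcodes with 1 hashtag carried that of CPI (864 and 690, against 64 and 19 for isotype), so class and treatment are mixed here. The class held 5546 and 4328 Psmb8 UMIs, of which 535 and 690 were of CPI and 166 and 38 of isotype. A further 44 and 25 were of isotype + ABT-317 and 21 and 44 of CPI + ABT-317. Most Psmb8 UMIs of the class thus came from barcodes with several hashtags or none. Klra4, Cox6a2, and H19 counted toward the list that gave this class. A doublet of a fibroblast and a Klra4/H19+ cell could therefore be called fibroblast-like. The part of such doublets in the pooled values and tests was not tested. Within CPI, 8 of the 10 genes passed: Nlrc5 (2.08 ± 0.34, adjusted p = 2.2e-05), Psmb8 (1.54 ± 0.22, adjusted p = 3.6e-06), Psmb9 (1.35 ± 0.21, adjusted p = 1.1e-05), and Psmb10 (1.14 ± 0.18, adjusted p = 1.9e-05) were among the 6 that were higher. H2-D1 (-0.66 ± 0.21, adjusted p = 0.013) and Tapbp (-0.65 ± 0.17, adjusted p = 0.0034) were lower in Klra4/H19+ cells. The share of all genes called within CPI is not given here, so the count of 8 is no result about the group.

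Against T-like cells, 7 genes passed, 4 lower and 3 higher in Klra4/H19+ cells, where 5023 of 14905 tested genes (33.7%, with 20.4% higher and 13.3% lower) passed. Nlrc5 differed most, by -3.04 ± 0.31 (SE), adjusted p = 4.5e-06, followed by Tap1 (-1.04 ± 0.24 (SE), adjusted p = 0.0036), H2-K1 (-0.57 ± 0.15 (SE), adjusted p = 0.009), and H2-D1 (-0.55 ± 0.17 (SE), adjusted p = 0.027). Psmb10 (2.01 ± 0.23 (SE), adjusted p = 1.4e-05), Psmb8 (0.90 ± 0.20 (SE), adjusted p = 0.0029), and Tapbp (0.70 ± 0.22 (SE), adjusted p = 0.025) were higher. Psmb9 (-0.36 ± 0.21) and Tap2 (-0.42 ± 0.25) did not pass. This comparison depends on the scale: the median of all genes stood at 0.78 with TMM factors, at 0.56 with DESeq2 size factors, and at 0.22 with totals alone, and the share of called genes that were higher went from 60.5% to 51.4% and 36.9%. B2m changed direction with it, from 0.19 ± 0.13 (SE), adjusted p = 0.31, with TMM factors, to -0.39 ± 0.11, adjusted p = 0.021, with totals alone. With totals alone Psmb8 (0.33 ± 0.17, adjusted p = 0.17) and Tapbp (0.14 ± 0.20, adjusted p = 0.7) were no longer called, while Nlrc5 (-3.59 ± 0.32, adjusted p = 4.3e-06) and Psmb10 (1.45 ± 0.21, adjusted p = 0.00021) were. Without T-like cells of reaction 2, 3 genes passed. Within CPI, whose hashtag marked 55 and 148 T-like barcodes, 4 genes passed: Nlrc5 (-1.50 ± 0.38, adjusted p = 0.0043), H2-K1 (-0.59 ± 0.17, adjusted p = 0.012), Psmb8 (0.70 ± 0.24, adjusted p = 0.035), and Psmb10 (1.60 ± 0.27, adjusted p = 8.7e-05). The share of all genes called within CPI is not given here either, so the count of 4 is no result about the group.

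The exchange of proteasome subunits was described as the ratio of UMIs of each inducible subunit to the constitutive one whose place it takes. Such a ratio needs no scaling. It is compared between classes here and between treatments further below, and not between pairs of subunits. Psmb8/Psmb5 was 1.32 and 1.47 in Klra4/H19+ cells and 1.31 and 1.38 in fibroblast-like cells, against 2.32 and 2.62 in macrophage-like and 2.86 and 3.97 in T-like cells. Psmb9/Psmb6 separated the same classes further, with 0.268 and 0.270 in Klra4/H19+, 0.314 and 0.327 in fibroblast-like, 0.715 and 0.766 in macrophage-like, and 1.15 and 1.23 in T-like cells. Psmb10/Psmb7 ran in the other order, from 2.77 and 3.01 in Klra4/H19+ cells to 1.97 and 2.08 in macrophage-like and 1.44 and 1.75 in T-like cells. Klra4/H19+ cells thus had the highest Psmb10/Psmb7 and the lowest Psmb9/Psmb6 among these 4 classes when barcodes of all treatments were pooled, with no overlap with the next class. Most hashtagged fibroblast-like barcodes were of CPI and few Klra4/H19+ barcodes were, and the order changed within a treatment. Within CPI Psmb9/Psmb6 was 0.400 and 0.362 in Klra4/H19+ and 0.268 and 0.297 in fibroblast-like cells, which reverses it. Psmb8/Psmb5 within CPI was 1.23 and 1.42 in Klra4/H19+ and 1.39 and 1.43 in macrophage-like cells, which overlapped. In fibroblast-like cells it was 0.836 and 0.969 there. Psmb10/Psmb7 in fibroblast-like cells was 2.43 and 2.70 with treatments pooled and 1.69 and 1.62 within CPI, against 2.27 and 2.17 in macrophage-like cells within CPI. Within CPI + ABT-317 Psmb10/Psmb7 was 2.55 and 2.60 in Klra4/H19+ and 2.30 and 2.71 in macrophage-like cells, which overlapped. The constitutive genes are part of this: Psmb5 was at 483 and 524 CPM in Klra4/H19+ cells and 209 and 216 in macrophage-like cells, a log2 difference of 1.16 ± 0.14 (SE), adjusted p = 5.8e-06. In TDLNs the mean ratios were 3.00 ± 0.13 (SD, n = 3) in T-like and 3.23 ± 0.35 in B-like cells for Psmb8/Psmb5, 1.13 ± 0.14 and 1.05 ± 0.051 for Psmb9/Psmb6, and 1.95 ± 0.27 and 1.75 ± 0.4 for Psmb10/Psmb7.

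**Figure D2:**
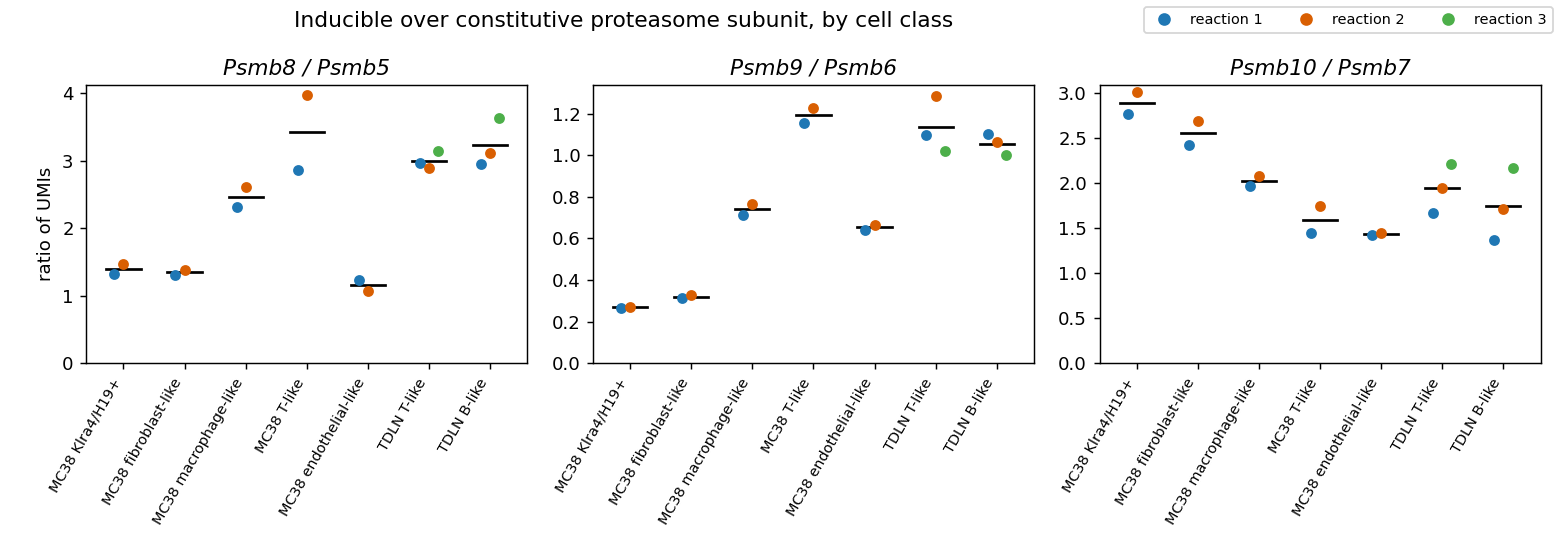
Ratio of the UMIs of each inducible proteasome subunit gene to those of its constitutive counterpart (y axis from 0) in each cell class (x axis). Points are reactions, with barcodes of all treatments pooled, and black lines are their means. With treatments pooled, Psmb9/Psmb6 is low and Psmb10/Psmb7 high in Klra4/H19+ and fibroblast-like cells. Psmb8/Psmb5 is low in both and in endothelial-like cells (1.23 and 1.07).

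Class I message varied more from cell to cell among Klra4/H19+ cells than among macrophage-like cells both when all treatments were pooled and, by the coefficient of variation beyond counting, within each treatment. For this the summed UMIs of B2m, H2-K1, and H2-D1 were counted in each cell after thinning it to 2000 UMIs. In reactions 1 and 2 the 10th percentile of Klra4/H19+ cells was 3 such UMIs in both, the median 8 and 9, and the 90th percentile 17 and 19. In macrophage-like cells the same points were 6, 11 and 12, and 19 and 20. The variance over the mean, which is 1 for counting error alone, was 3.90 and 4.35 in Klra4/H19+ cells, 2.75 and 3.49 in fibroblast-like, and 2.35 and 2.62 in macrophage-like cells, and 1.82 in the 26 T-like cells kept in reaction 2. Within isotype it was 4.15 and 4.41 in Klra4/H19+ and 2.24 and 2.43 in macrophage-like cells, within isotype + ABT-317 4.10 and 5.01 and 2.36 and 2.81, and within CPI + ABT-317 4.00 and 3.96 and 2.01 and 3.01. Within CPI it was 3.15 and 3.02 in 71 and 41 Klra4/H19+ cells and 2.38 and 3.31 in 22 and 45 macrophage-like cells, so that macrophage-like cells were higher in reaction 2. This measure rises with the mean, which was higher in macrophage-like cells. The coefficient of variation beyond counting within CPI was 0.484 and 0.413 in Klra4/H19+ and 0.294 and 0.360 in macrophage-like cells, and Klra4/H19+ cells were higher in both reactions under all 4 treatments. Shallower cells were left out by the thinning, which kept 14458 and 9902 of the Klra4/H19+ cells and 2549 and 3868 of the macrophage-like cells.

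**Figure D3:**
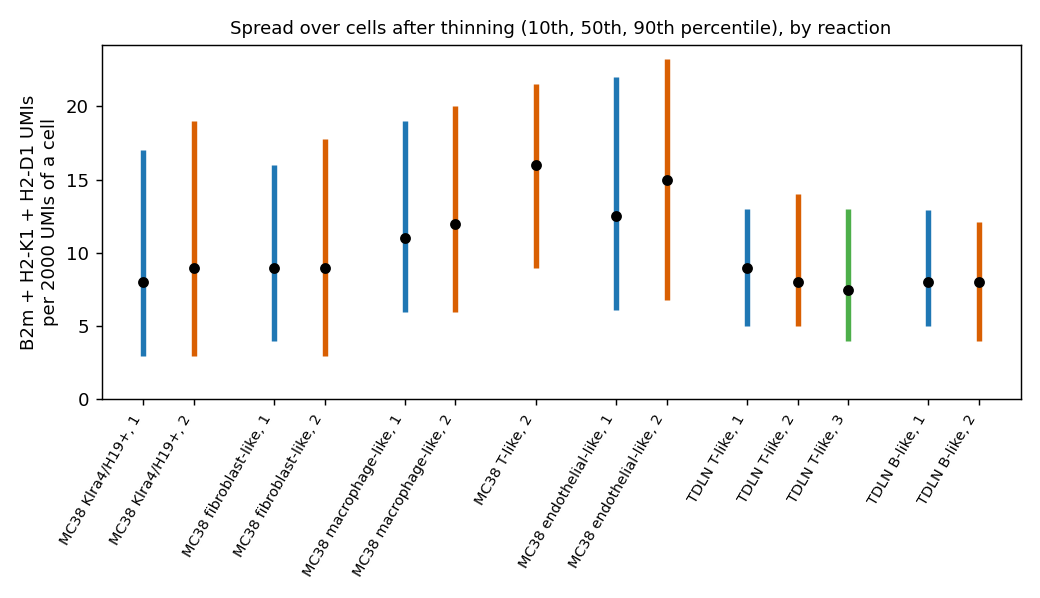
Summed UMIs of B2m, H2-K1, and H2-D1 per cell after thinning to 2000 UMIs (y axis) by cell class and reaction (x axis). Points are medians over cells and lines run from the 10th to the 90th percentile. The Klra4/H19+ lines run from 3 to 17 and 19, and those of macrophage-like cells from 6 to 19 and 20.

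Treatments were compared within macrophage-like and within Klra4/H19+ cells, the classes with enough barcodes of all 4 hashtags. In macrophage-like cells CPI went with more heavy chain and less Psmb8. Reactions 1 and 2 held 1916 and 3013 macrophage-like barcodes of isotype, 137 and 173 of isotype + ABT-317, 70 and 92 of CPI, and 130 and 260 of CPI + ABT-317. H2-K1 was at 1323 and 1369 CPM under isotype, 1317 and 1232 under isotype + ABT-317, 1835 and 2318 under CPI, and 2147 and 2223 under CPI + ABT-317. H2-D1 was at 1425 and 1614, 1447 and 1451, 2074 and 2598, and 2230.0 and 2453 CPM in the same order. For both heavy chains every CPI value, with or without ABT-317, lay above every isotype value. Psmb8 was at 469.8 and 553 CPM under isotype, 382 and 492 under isotype + ABT-317, 312 and 308 under CPI, and 599.9 and 672 under CPI + ABT-317, so it was lowest under CPI and highest under CPI + ABT-317. Psmb9 was at 219.8 and 262, 216 and 274, 196 and 159, and 361 and 357 CPM, and Psmb10 at 189 and 193, 141 and 177, 181 and 121, and 249 and 276 CPM. All 3 inducible subunits were highest under CPI + ABT-317.

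For CPI against isotype, 4 of the 10 genes passed the test in macrophage-like cells, beside 1087 of 6972 tested genes (15.6%, with 8.71% higher and 6.88% lower). H2-K1 (0.61 ± 0.16 (SE), adjusted p = 0.011), H2-D1 (0.60 ± 0.16 (SE), adjusted p = 0.015), and Tapbp (0.63 ± 0.20 (SE), adjusted p = 0.039) were higher on the log2 scale and Psmb8 (-0.75 ± 0.20 (SE), adjusted p = 0.013) was lower. B2m (0.14 ± 0.14), Tap1 (-0.29 ± 0.34), Tap2 (0.11 ± 0.32), Psmb9 (-0.50 ± 0.22), Psmb10 (-0.41 ± 0.23), and Nlrc5 (0.54 ± 0.45) did not pass. The 70 and 92 CPI barcodes were shallow, with median depths of 1586 and 1992 UMIs against 3290.0 and 3802 under isotype. Their macrophage list was lower (9776 and 10804 CPM against 15299 and 18344) and so were their 5 leukocyte genes (3009.7 and 2901 CPM against 3891 and 4283), and the part of these differences in the result was not tested. The count of 4 fell to 0 without CPI of reaction 2, to 2 without CPI of reaction 1, and to 1 and 2 without isotype of reactions 1 and 2.

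ABT-317 was compared with vehicle under each antibody. Under isotype, none of the 10 genes passed, beside 4 of 6972 tested genes (0.0574%), with 0 at an unadjusted p under 0.05 and 0 by DESeq2. Under CPI, 3 passed, beside 642 of 6972 tested genes (9.21%, with 4.15% higher and 5.06% lower): Psmb8 (1.07 ± 0.20 (SE), adjusted p = 0.0018), Psmb9 (1.06 ± 0.23 (SE), adjusted p = 0.0044), and Psmb10 (0.88 ± 0.23 (SE), adjusted p = 0.019) were higher with ABT-317. The heavy chains stood at 0.086 ± 0.16 (H2-K1) and 0.018 ± 0.16 (H2-D1), and B2m (0.23 ± 0.14), Tap2 (0.47 ± 0.33), Tapbp (-0.027 ± 0.21), and Nlrc5 (0.038 ± 0.46) did not pass. Tap1 passed with the reaction as a block (1.04 ± 0.32, adjusted p = 0.026) and not without it (1.04 ± 0.34 (SE), adjusted p = 0.057). Without CPI of reaction 2 the count fell to 1, and without CPI + ABT-317 of reaction 2 to 2. The difference between both ABT-317 effects, tested as an interaction, passed for the same 3 genes, with Psmb8 at 1.31 ± 0.26 (SE), adjusted p = 0.0051, Psmb10 at 1.16 ± 0.28 (SE), adjusted p = 0.023, and Psmb9 at 1.06 ± 0.28 (SE), adjusted p = 0.033, beside 324 of 6972 tested genes (4.65%, with 2.31% higher and 2.34% lower). With the block Tap1 joined them (1.28 ± 0.37, adjusted p = 0.024). The count of 3 fell to 1 without CPI or CPI + ABT-317 of reaction 2 and to 2 without CPI of reaction 1, isotype of reaction 2, or isotype + ABT-317 of reaction 1. Comparisons that share a group are not independent, and the low CPI values enter each of the last ones.

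The comparison of CPI + ABT-317 with isotype + ABT-317 does not use the CPI barcodes. Here 4 genes passed, all higher under CPI + ABT-317, beside 147 of 6972 tested genes (2.11%, with 1.74% higher and 0.373% lower): H2-K1 (0.81 ± 0.16 (SE), adjusted p = 0.0046), H2-D1 (0.72 ± 0.16 (SE), adjusted p = 0.015), Tap1 (0.97 ± 0.24 (SE), adjusted p = 0.031), and Psmb10 (0.74 ± 0.17 (SE), adjusted p = 0.026). Tap1 was at 105 and 54.1 CPM under isotype + ABT-317 and 150.5 and 141 under CPI + ABT-317. B2m was at 3317 and 2907 and 3910.2 and 3904 CPM, which did not pass (0.36 ± 0.14 (SE), adjusted p = 0.27). All 10 genes had an unadjusted p under 0.05, a threshold for which the share of all genes is not given here. With the reaction as a block 9 passed, beside 4.69% of all genes: B2m (0.36 ± 0.073, adjusted p = 0.0012), Psmb8 (0.56 ± 0.10, adjusted p = 0.00032), Psmb9 (0.54 ± 0.13, adjusted p = 0.0055), Tapbp (0.64 ± 0.15, adjusted p = 0.0076), and Nlrc5 (1.20 ± 0.36, adjusted p = 0.044) joined the 4, and Tap2 did not. The median log2 difference was 0.68 over the 10 genes and -0.0023 over all genes. Depth and markers were closer here, with median depths of 3148 and 3893 UMIs under isotype + ABT-317 and 3630.0 and 4466 under CPI + ABT-317, and macrophage lists of 15331 and 17153 CPM and of 14969.7 and 18286 CPM. Without isotype + ABT-317 or CPI + ABT-317 of reaction 2 none of the 10 genes passed, without isotype + ABT-317 of reaction 1 there was 1, and assigning treatment by the leading hashtag left 1.

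**Figure D4:**
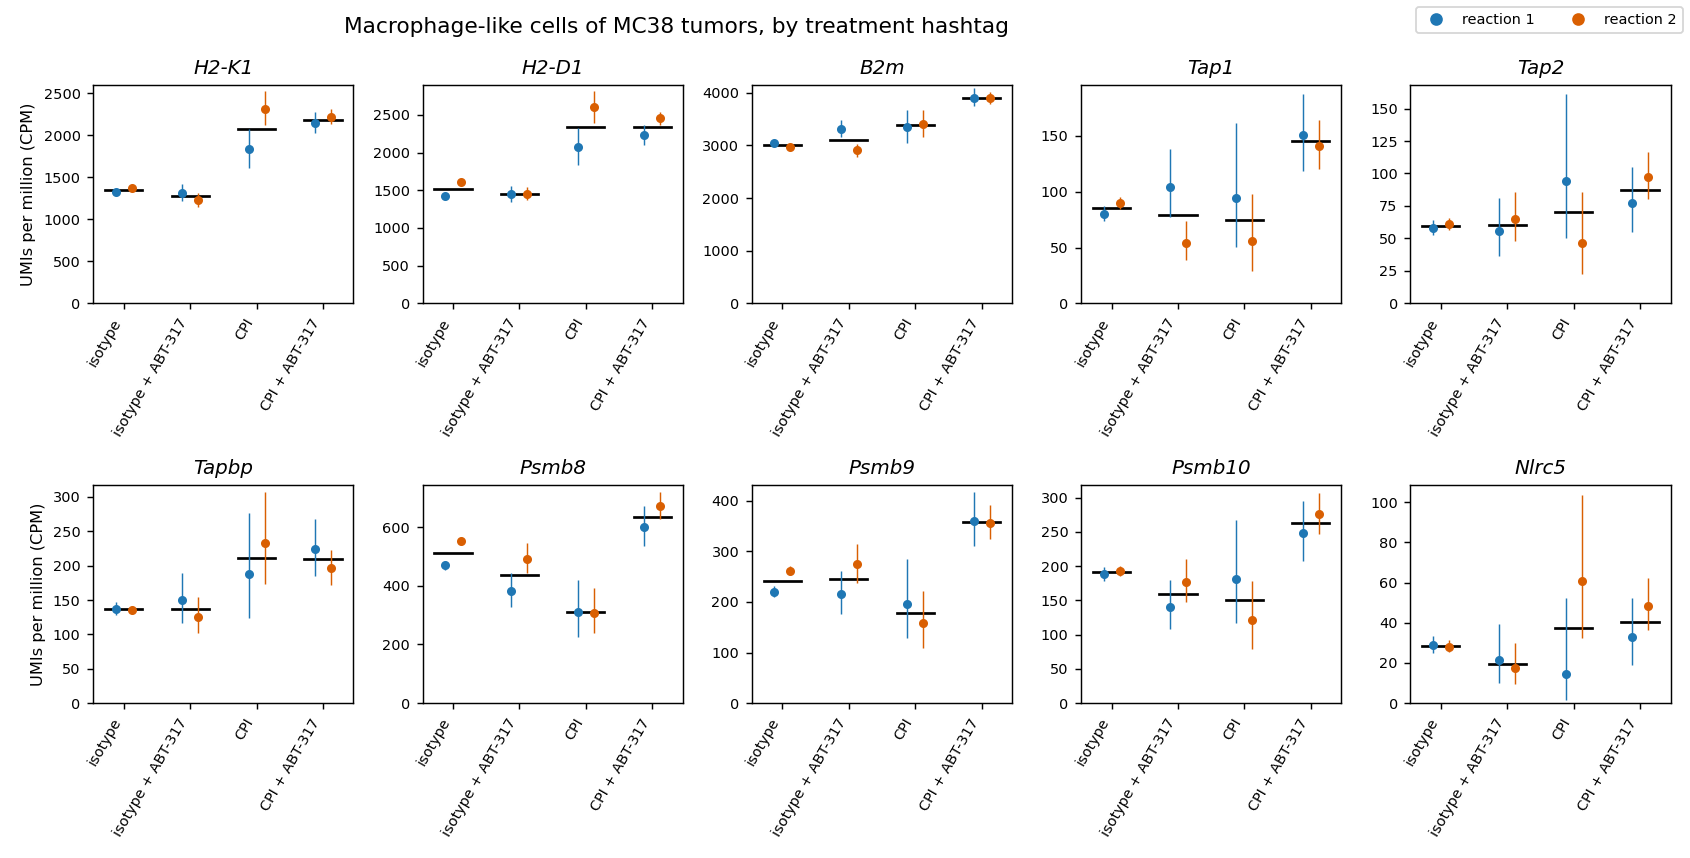
Level of each class I gene (CPM, y axis from 0) in macrophage-like cells of MC38 tumors by treatment hashtag (x axis). Points are reactions with 95% Poisson intervals, which cover counting error only, and black lines are means. H2-K1 and H2-D1 are higher in both CPI treatments than in both isotype treatments, and Psmb8 is at 312 and 308 under CPI against 600 and 672 under CPI + ABT-317.

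In Klra4/H19+ cells 1 of the 10 genes passed in 1 treatment comparison, and more passed once the reaction was a block. Reactions 1 and 2 held 4002 and 3485 Klra4/H19+ barcodes of isotype, 2141 and 1712 of isotype + ABT-317, 94 and 44 of CPI, and 1490 and 1548 of CPI + ABT-317. With so few barcodes in the CPI group, CPI-treated cells and cells with a miscalled hashtag cannot be told apart. Their Y-linked genes summed to 6.72 and 7.80 CPM, against 1.43 and 0.530 CPM under isotype, and their T cell list to 0.841 and 7.80 CPM, and the part of other cells in the values was not tested. H2-K1 was at 1147 and 1243 CPM under isotype, 1018 and 1131 under isotype + ABT-317, 1237 and 1369.9 under CPI, and 1323 and 1388 under CPI + ABT-317. B2m was at 2434 and 2432, 2255 and 2325, 2677 and 2763, and 2844 and 2742 CPM in the same order. Both were higher in each reaction under CPI + ABT-317 than under isotype + ABT-317. Nlrc5 was at 10.8 and 8.78 CPM under isotype, 10.6 and 7.86 under isotype + ABT-317, 52.1 and 32.3 under CPI, and 21.2 and 15.3 under CPI + ABT-317, so that both isotype groups lay below both CPI groups. Psmb9 was at 128 and 143, 104 and 125, 169 and 172, and 163 and 181 CPM. Tap1 was at 38.7 and 43.7, 35.1 and 40.4, 57.2 and 64.6, and 55.4 and 57.9 CPM, and it too separated the CPI groups from the isotype groups. Psmb10 went the other way, with 329 and 381 CPM under isotype and 266 and 242 under CPI.

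For CPI against isotype, Nlrc5 alone passed in Klra4/H19+ cells (1.96 ± 0.27 (SE), adjusted p = 0.0065), beside 788 of 15197 tested genes (5.19%, with 2.74% higher and 2.44% lower). Without CPI of reaction 1 the count was 0, and without isotype of reaction 1 or isotype + ABT-317 of either reaction it was 2. With the reaction as a block 4 passed, beside 17.8% of all genes, the others being Psmb10 (-0.63 ± 0.081, adjusted p = 1.4e-05), Psmb8 (-0.33 ± 0.05, adjusted p = 7.6e-05), and Tapbp (-0.50 ± 0.11, adjusted p = 0.0028). H2-K1, H2-D1, B2m, and Tap2 lay below 0 in the TMM fit and above 0 with totals alone (H2-K1 -0.049 ± 0.13 and 0.13 ± 0.10, adjusted p = 0.53), and none of the 4 was called on either scale. The share of called genes that were higher rose with totals alone from 52.9% to 73.9%.

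None of the 10 genes passed in the other comparisons within Klra4/H19+ cells, beside 25 of 15197 tested genes (0.165%) for CPI + ABT-317 against isotype + ABT-317, 221 of 15197 tested genes (1.45%, with 0.612% higher and 0.842% lower) for CPI + ABT-317 against CPI, 0 of 15197 tested genes (0%) for isotype + ABT-317 against isotype, and 56 of 15197 tested genes (0.368%) for the interaction. At an unadjusted p under 0.05 the counts of members were 5, 5, 0, and 1, and the share of all genes at that threshold is not given here. DESeq2 called 1, 1, 0, and 0 members, and its counts over all genes are given further below. With the reaction as a block the picture changed to 7, 7, 4, and 8 of the 10 genes, beside 25%, 12.4%, 25.6%, and 10.5% of all genes. Under CPI + ABT-317 against isotype + ABT-317 the blocked differences were 0.94 ± 0.07, adjusted p = 1.8e-08 for Nlrc5, 0.55 ± 0.035, adjusted p = 1.8e-09 for Psmb9, 0.55 ± 0.043, adjusted p = 3.1e-08 for Tap1, 0.30 ± 0.029, adjusted p = 5.6e-07 for H2-K1, 0.25 ± 0.03, adjusted p = 8e-06 for B2m, and 0.23 ± 0.039, adjusted p = 0.0002 for H2-D1. Psmb10 was lower, by -0.16 ± 0.039, adjusted p = 0.0063. For isotype + ABT-317 against isotype the blocked calls were small, with Psmb9 (-0.18 ± 0.034, adjusted p = 0.00056), H2-D1 (-0.15 ± 0.038, adjusted p = 0.0071), and H2-K1 (-0.091 ± 0.029, adjusted p = 0.027) lower and Psmb8 (0.092 ± 0.031, adjusted p = 0.034) higher. For CPI + ABT-317 against CPI they were B2m, H2-D1, H2-K1, Psmb10, Psmb8, and Tapbp, all higher (from 0.17 ± 0.054, adjusted p = 0.047, for H2-D1 to 0.52 ± 0.082, adjusted p = 0.00018, for Psmb10), and Nlrc5, lower (-1.03 ± 0.17, adjusted p = 0.00031). The interaction took in the same 7 genes and Psmb9 (0.38 ± 0.089, adjusted p = 0.0073).

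**Figure D5:**
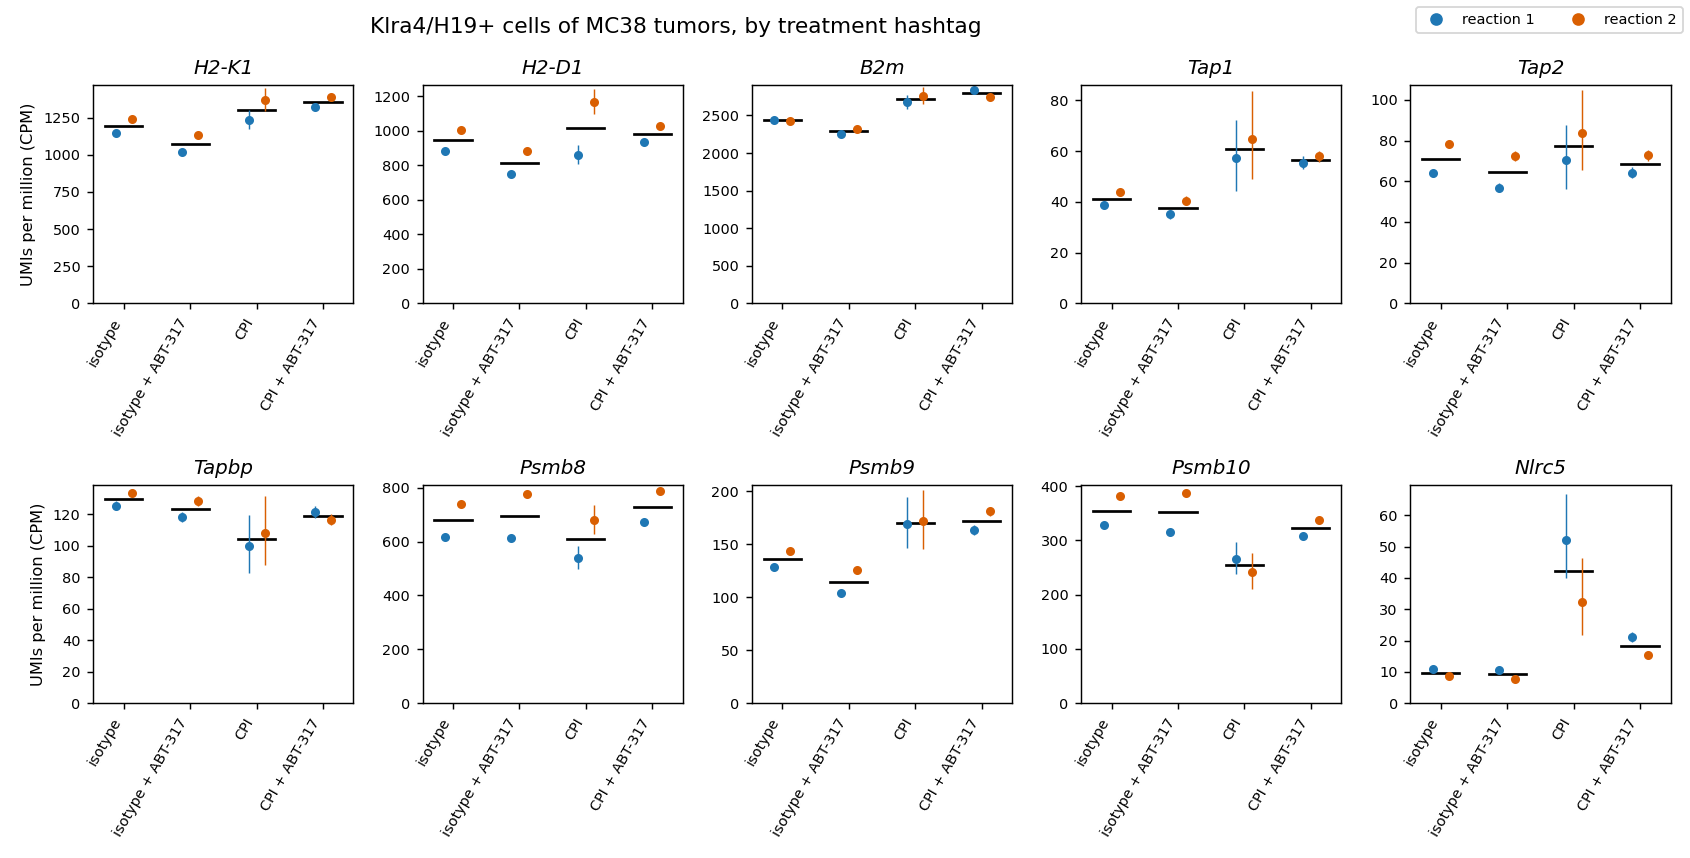
Level of each class I gene (CPM, y axis from 0) in Klra4/H19+ cells of MC38 tumors by treatment hashtag (x axis). Points are reactions with 95% Poisson intervals, which cover counting error only, and black lines are means. The CPI intervals are wide because 94 and 44 barcodes carried that hashtag, and Nlrc5 and Tap1 are higher in both CPI treatments than in both isotype treatments.

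Whether the treatment effects differed between the 2 classes was tested as well. No member passed for CPI against isotype (beside 337 of 12979 tested genes (2.6%, with 1.24% higher and 1.36% lower)), CPI + ABT-317 against isotype + ABT-317 (8 of 12979 tested genes (0.0616%)), or CPI + ABT-317 against CPI (150 of 12979 tested genes (1.16%, with 0.509% higher and 0.647% lower)), with 3, 3, and 2 members at an unadjusted p under 0.05. The share of all genes at that unadjusted threshold is not given here. With the reaction as a block the CPI effect was lower in macrophage-like than in Klra4/H19+ cells for Psmb8 (-0.67 ± 0.15, adjusted p = 0.0069) and Psmb9 (-0.91 ± 0.21, adjusted p = 0.012) and higher for Tapbp (0.89 ± 0.22, adjusted p = 0.017). With ABT-317 given to both, the CPI effect was higher in macrophage-like cells for Psmb10 (0.93 ± 0.17, adjusted p = 0.0077) and Psmb8 (0.55 ± 0.12, adjusted p = 0.025). The ABT-317 effect under CPI was higher in them for Psmb8 (0.67 ± 0.15, adjusted p = 0.018) and Psmb9 (0.92 ± 0.22, adjusted p = 0.027). With the block, 4.39%, 0.416%, and 1.74% of all genes were called in these comparisons, in the same order. Of the other pathway genes, H2-T23 passed without the block, with a CPI effect that was higher in macrophage-like cells (1.49 ± 0.32 (SE), adjusted p = 0.01).

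The subunit ratios by treatment need no scaling between groups. In macrophage-like cells Psmb8/Psmb5 was 2.46 ± 0.24 (SD, n = 2) under isotype, 2.21 ± 0.24 under isotype + ABT-317, 1.41 ± 0.034 under CPI, and 2.60 ± 0.18 under CPI + ABT-317, and only CPI stood apart from the other treatments. Psmb9/Psmb6 was 0.718 ± 0.041, 0.680 ± 0.12, 0.734 ± 0.19, and 1.12 ± 0.065 in the same order, and CPI + ABT-317 was the highest in both reactions. Psmb10/Psmb7 was 1.96 ± 0.064, 1.57 ± 0.097, 2.22 ± 0.075, and 2.51 ± 0.29 in the same order. The CPI ratios of Psmb10/Psmb7 rest on 25 and 26 Psmb10 UMIs and 11 and 12 Psmb7 UMIs, so their SD understates the counting error and they cannot be placed against isotype. The CPI ratios of the other pairs rest on 27 to 66 UMIs a gene. In Klra4/H19+ cells Psmb9/Psmb6 was 0.222 ± 0.0089 under isotype + ABT-317, 0.269 ± 0.0035 under isotype, 0.344 ± 0.0031 under CPI + ABT-317, and 0.381 ± 0.026 under CPI, where the CPI values rest on 201 and 154 Psmb9 UMIs, while Psmb8/Psmb5 ranged from 1.23 to 1.49 over all 8 values. Psmb10/Psmb7 was at 3.04 ± 0.12 under isotype, 2.78 ± 0.23 under isotype + ABT-317, 2.63 ± 0.11 under CPI, and 2.57 ± 0.035 under CPI + ABT-317 there, with 117 and 85 Psmb7 UMIs under CPI.

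Fibroblast-like and T-like cells could not be compared between treatments, since few of them carried hashtags other than that of CPI. Fibroblast-like cells under CPI had 1327 and 1397 CPM of H2-K1, 162 and 205 of Psmb8, and 97.7 and 104 of Psmb10. The 64 and 19 fibroblast-like barcodes of isotype had 1221 and 1309, 424 and 371, and 261 and 127 CPM of the same genes. T-like cells under CPI had 2613 and 2605 CPM of H2-K1 and 125 and 173 of Nlrc5.

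In TDLNs the values of the 10 genes overlapped between T-like and B-like cells. The part of free RNA in these values was not tested. The 5 B-cell marker genes summed to 18.0, 20.3, and 41.0 CPM in T-like cells and the 6 T-cell marker genes to 19.6, 18.1, and 10.7 CPM in B-like cells, but these genes had been used to choose the cells. H2-K1 was at 1918, 1896, and 1702 CPM in T-like cells of reactions 1 to 3 and 1736, 1668, and 1900.3 in B-like cells. B2m was at 1362, 1307, and 1157 CPM in T-like and 1209, 1179.9, and 1127 in B-like cells, and Nlrc5 at 102, 103, and 109 and 86.8, 63.0, and 118. None of the 10 genes passed the test with edgeR, beside 584 of 9950 tested genes (5.87%, with 1.92% higher and 3.95% lower). At an unadjusted p under 0.05 there was 1 member, DESeq2 called 0, and with the reaction as a block Nlrc5 passed (0.46 ± 0.14, adjusted p = 0.031), beside 13.6% of all genes. The largest difference was that of Nlrc5 (0.45 ± 0.17 (SE), adjusted p = 0.16), and the 9 others lay between -0.14 (Tap1) and 0.22 (Tap2). Among T-like cells, those with Cd8a or Cd8b1 had 1884, 1863, and 1697 CPM of H2-K1, and those with Cd4 had 1825, 1957, and 1960.2 CPM, the last from 7 barcodes. Levels were not compared between TDLNs and tumors, whose matrices use different gene annotations.

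Further genes of the pathway were read from lists of 23 genes in all. Against macrophage-like cells, where 70.2% of all genes were called (37.6% higher and 32.6% lower), the nonclassical class I genes were called in both directions in Klra4/H19+ cells, with 4 of 7 higher and 3 lower. Counts near these shares are no result about a list. H2-T24 (-3.40 ± 0.22 (SE), adjusted p = 9.8e-09) and H2-T23 (-3.17 ± 0.17 (SE), adjusted p = 8.6e-10), which encodes the ligand Qa-1 of NK receptors, were much lower, at 22.55 and 25.02 CPM of H2-T23 against 194 and 210.1. H2-M3 (-0.69 ± 0.17) was lower, and H2-T22 (0.62 ± 0.20) higher. Of the proteasome activator PA28, Psme1 was lower (-0.70 ± 0.17) and Psme2 higher (0.53 ± 0.16). Of 3 constitutive catalytic subunits, Psmb5 (1.16 ± 0.14) and Psmb6 (0.50 ± 0.15) were higher. Of 6 regulators 5 were lower, among them Irf2 (-0.96 ± 0.14), Rfxank (-0.86 ± 0.19), and Rfx5 (-0.75 ± 0.24). None of 5 loading and trimming genes passed. Against fibroblast-like cells, where 58% of all genes were called, 3 of 7 nonclassical genes were higher and 2 lower, with the largest differences in H2-T23 (-1.85 ± 0.16), H2-T24 (-0.99 ± 0.31), H2-Q7 (0.98 ± 0.14), and H2-Q6 (0.65 ± 0.14). All 3 constitutive subunits and both PA28 genes were higher in Klra4/H19+ cells, and none of the regulators or loading genes passed. Against T-like cells, where 33.7% were called, 3 nonclassical genes were lower, H2-T23 by most (-2.93 ± 0.21), and 1 was higher, and the 3 constitutive subunits, Psme2, and the chaperones Calr (1.32 ± 0.18), Pdia3 (1.20 ± 0.18), and Canx (0.96 ± 0.25) were higher. In TDLNs H2-M3 was the 1 gene of the lists that passed, lower in T-like than in B-like cells (-1.03 ± 0.19 (SE), adjusted p = 0.0056).

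By treatment, Irf1, an interferon-induced activator of class I genes, was higher under CPI in both classes. In macrophage-like cells it was at 102 and 95.2 CPM under isotype, 126 and 90.6 under isotype + ABT-317, 247 and 345 under CPI, and 245 and 239 under CPI + ABT-317. CPI against isotype gave 1.60 ± 0.21 (SE), adjusted p = 1.4e-05, and with ABT-317 in both groups 1.22 ± 0.20 (SE), adjusted p = 0.001. In Klra4/H19+ cells CPI against isotype gave 1.14 ± 0.13 (SE), adjusted p = 0.0029, and Irf1 was lower under CPI + ABT-317 than under CPI (-0.76 ± 0.13 (SE), adjusted p = 0.028). Both of these values rest on the 94 and 44 Klra4/H19+ barcodes of CPI, which cannot be told apart from cells with a miscalled hashtag. In macrophage-like cells Psme1 was lower under CPI than isotype (-0.87 ± 0.20 (SE), adjusted p = 0.0055) and higher again with ABT-317 (0.98 ± 0.21 (SE), adjusted p = 0.0042). Psme2 was also higher in them under CPI + ABT-317 than under CPI (0.72 ± 0.19). In the same cells H2-T23 was higher under CPI than isotype (0.66 ± 0.19), and H2-Q7 and H2-T23 were higher under CPI + ABT-317 than isotype + ABT-317 (1.00 ± 0.17 and 0.94 ± 0.17). H2-Q7 was also higher in macrophage-like cells under CPI + ABT-317 than under CPI (0.91 ± 0.22). The interaction in macrophage-like cells was called for H2-Q7 (1.11 ± 0.27) and Psme1 (1.01 ± 0.26). Of 7 nonclassical genes and 6 regulators, 6 and 4 could be tested in macrophage-like cells, and none of the constitutive subunits or loading genes passed in any treatment comparison. Psme2 was lower in Klra4/H19+ cells under CPI than isotype (-0.61 ± 0.13) and higher under CPI + ABT-317 than CPI (0.68 ± 0.13), and H2-T23 was lower in them under CPI than isotype (-1.06 ± 0.23).

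The genes whose levels ran most like the mean log2 level of the 10 genes over the 8 class and reaction units of MC38 tumors were Tmem179b, Cdk2ap2, and Btg1 (Pearson r of 0.991 each), Ezr (0.982), and Traf1 (0.979), followed by Med11, Srrm1, Fam110a, Hscb, and Ostf1 (at least 0.975), out of 6175 genes with a mean of at least 20 CPM. The 8 points are 4 classes in 2 reactions and share libraries and depth, so r is a description. Btg1, for example, was at 193 and 197 CPM in Klra4/H19+ cells, 172 and 156 in fibroblast-like, 315 and 325 in macrophage-like, and 484 and 594 in T-like cells.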

How the data were processed

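The 5 deposited matrices hold raw UMI counts per gene and barcode, which the authors made with Cell Ranger (7.1.0 in the TDLN matrix headers, 8.0.1 in those of MC38 tumors, and 3.1.0 in the submitters' processing notes) on GRCm38/mm10. Barcodes with at least 200 genes and under 10% mitochondrial UMIs were kept. The stated upper limit of 2500 genes was not applied, because 18543 of 33762 and 13650 of 23332 MC38 barcodes reach it. No doublet caller was run. Gene UMIs per reaction were 127052825, 105259770, and 18055617 in TDLNs and 435031691 and 377184807 in MC38 tumors. Intervals cover counting error only.

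A barcode was given a class where 1 marker list had at least 3 UMIs and at least 90% of the summed list levels, each relative to a set level. MC38 barcodes of the fibroblast list, to which Klra4, Cox6a2, and H19 were added, were called Klra4/H19+ with under 5 Col1a1 and Col1a2 UMIs per 10000, and fibroblast-like with at least 40. In MC38 reactions 1 and 2, 1894 and 1290 barcodes lay within 0.05 below the share that gives a class and 4320 and 3115 within 0.05 above it. A treatment was given by 1 hashtag alone, from a fit of 2 components to log UMIs, and 16183 and 7971 barcodes had several.

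UMIs were summed per class, treatment, and reaction (at least 20 barcodes, or 50 in the MC38 class fit). They were tested with edgeR 4.0.16 (R 4.3.3; quasi-likelihood, TMM factors, filterByExpr), with Benjamini-Hochberg adjustment over all genes. SEs are the log2 difference over the root of F. DESeq2 1.42.0, other scalings, filters, gates, and units left out were alternatives. The reaction number marks a shared 10x reaction, so it pairs the units. Deviations of units of the same reaction correlated by 0.11 to 0.56 over treatments of Klra4/H19+ cells, 0.028 to 0.31 in macrophage-like cells, 0.015 to 0.21 over MC38 classes, and 0.07 to 0.25 in TDLNs. The fits without the block were tested on simulated data, with an outcome that is not given here, and those with the block were not.

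The rule for named genes took in the 10 members, up to 4 genes of each pathway list that passed, and the 10 genes most like the members' mean. A member given no value in a comparison did not pass its test. The genes and lists were chosen with earlier results of these data known. The gate, and the Klra4, Cox6a2, and H19 list, were set after marker levels had been seen, without the class I genes. Klra4 was then left out of the NK list. Positions are from GENCODE and promoters from RefSeq, both on GRCm38. The values of 1 regulator and 1 promoter motif are not reported here.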

Additional observations from a re-analysis of the deposited data

Results flagged for a closer look

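In macrophage-like cells of MC38 tumors, the effect of ABT-317 differed between CPI and isotype for 3 of the 10 genes by edgeR's interaction test. The log2 difference of the effects was 1.31 for Psmb8, 1.16 for Psmb10, and 1.06 for Psmb9. DESeq2 called 2 of these 3. The values rest on 70 and 92 macrophage-like barcodes with the CPI hashtag, and 1 of the 10 genes passed without CPI or CPI + ABT-317 of reaction 2.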

How the results depend on the processing

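Of the values of single genes under an alternative, 2303 kept their direction and their side of the threshold, 110 lost a call, 103 gained one, 39 moved, and 4 reversed. In Klra4/H19+ against macrophage-like cells H2-K1 stood at 0.0087 within isotype + ABT-317, and Nlrc5 at 0.054 and Psmb9 at 0.0048 within CPI. Against T-like cells B2m stood at -0.39 with total UMIs alone as scaling. These 4 do not take in every change of sign. For CPI against isotype in Klra4/H19+ cells, H2-K1, H2-D1, B2m, and Tap2 changed sign with totals alone, with no call on either scale. The cause was not tested.

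With the reaction as a replicate block, counts of members called became 7 against fibroblast-like cells and 1 in TDLNs. Within Klra4/H19+ cells they became 4 for CPI, 4 for ABT-317 under isotype, 7 for ABT-317 under CPI, 7 for CPI + ABT-317 against isotype + ABT-317, and 8 for the interaction. In macrophage-like cells CPI + ABT-317 against isotype + ABT-317 gave 9, and the differences between classes gave 3, 2, and 2. The block moved no other count of members by over 1.5 times. Against T-like cells 4 members passed with exactly 1 hashtag and 4 within CPI, and against fibroblast-like cells 8 passed within CPI. In Klra4/H19+ cells DESeq2 called 3 for CPI, 1 for ABT-317 under CPI, and 1 for CPI + ABT-317 against isotype + ABT-317. With no filter on low counts these were 3, 3, and 1, and the interaction gave 1. In macrophage-like cells CPI gave 2 with no filter. There CPI + ABT-317 against isotype + ABT-317 gave 2 with a stricter gate and 1 with a leading hashtag, and the interaction gave 1 with a leading hashtag and 1 with at least 1000 genes.

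When 1 unit at a time was left out, members called ranged from 6 to 8 against macrophage-like, 3 to 7 against T-like, and 2 to 5 against fibroblast-like cells. In Klra4/H19+ cells they ranged from 0 to 2 for CPI and stayed at 0 otherwise, as in TDLNs. In macrophage-like cells they ranged from 0 to 3 for CPI, 1 to 4 for ABT-317 under CPI, 0 to 4 for CPI + ABT-317 against isotype + ABT-317, and 1 to 4 for the interaction, and were 0 for ABT-317 under isotype.

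Over all genes, TDLN calls went from 584 to 1353 with the block, 294 by DESeq2, and 934 with no filter. In Klra4/H19+ cells CPI went from 788 to 2699, 1437, and 1760 in that order, ABT-317 under isotype from 0 to 3895, 23, and 292, ABT-317 under CPI from 221 to 1888, 805, and 976, CPI + ABT-317 against isotype + ABT-317 from 25 to 3794, 175, and 301, and the interaction from 56 to 1602, 373, and 463. A leading hashtag gave 423 for CPI, 55 for ABT-317 under CPI, and 0 for the interaction. In macrophage-like cells ABT-317 under isotype went from 4 to 59 with the block, 8 by DESeq2, 31 with no filter, 9 with at least 1000 genes, and 1 with a leading hashtag or with fewer than 2500 genes. CPI + ABT-317 against isotype + ABT-317 went from 147 to 327 with the block and 93 with a leading hashtag, and the interaction from 324 to 652 with the block and 210 with a stricter gate, which took CPI from 1087 to 708 and ABT-317 under CPI from 642 to 410. Against macrophage-like cells calls went from 10456 to 6721 within isotype + ABT-317 and 3885 within CPI. The differences between classes went with the block from 337 to 570 for CPI, 8 to 54 for CPI + ABT-317 against isotype + ABT-317, and 150 to 226 for ABT-317 under CPI.

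The summed level of the 10 genes in Klra4/H19+ cells was 6308 CPM with fewer than 2500 genes per cell. With a stricter gate Psmb9/Psmb6 was 0.271 in Klra4/H19+, 0.308 in fibroblast-like, and 1.38 in T-like cells of MC38 tumors, Psmb10/Psmb7 was 1.1 in those T-like cells, and Psmb8/Psmb5 was 2.76 in T-like cells of TDLNs. The coefficient of variation beyond counting was 0.068 in B-like cells thinned to 1000 UMIs. Not run for too few barcodes were the stricter gate in TDLNs and against T-like cells, and Klra4/H19+ treatments with fewer than 2500 genes. Leaving out a whole MC38 reaction leaves no residual degrees of freedom. The alternatives within 1 treatment, with total UMIs as scaling, and between classes were chosen after seeing the data.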
